A study of Mus musculus with 39 samples.

Results

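Basement membrane genes were examined in the peak lists of 36 CUT&Tag libraries from mouse naive extra-embryonic endoderm (nEnd). The 9 genes were Col4a1, Col4a2, Lama1, Lamb1, Lamc1, Nid1, Nid2, Hspg2 and Sparc, out of 21911 protein-coding genes. They were chosen by name, with earlier results of these data known. A gene's window was its annotated body plus 20 kb on either side in GRCm38, and 559 of the 432096 listed peaks lay in these windows. The windows ran from 68.7 to 176 kb, with a median of 142 kb against 57.4 kb over all genes.

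The cells were nEnd cultures of the OCT4-mCherry reporter line, derived from embryonic stem cells (ESCs) and given no treatment, and feeder fibroblasts were used in their expansion. FACS for OCT4-mCherry and PDGFRA-APC separated Oct4+ nEnd, double positive (DP) nEnd and Pdgfra+ nEnd, and each population was profiled in 3 replicates for H3K27ac, H3K4me1, H3K27me3 and H3K9me3. CUT&Tag uses an antibody to bring a transposase to a histone mark, so that the DNA around the mark is tagged and sequenced. H3K27ac marks active promoters and enhancers, H3K4me1 marks enhancers whether active or primed, H3K27me3 is the mark of Polycomb repression and H3K9me3 that of heterochromatin. Each population is a bulk sample, so fewer cells carrying a mark and less of the mark per cell cannot be told apart.

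The basement membrane is a thin sheet of matrix under an epithelium. Trimeric laminins polymerise at the cell surface, type IV collagen forms a covalently linked network, and nidogens and the heparan sulphate proteoglycan perlecan connect both networks. Primitive endoderm and its parietal derivative are known for secreting large amounts of this matrix, of which Reichert's membrane is the best known example.

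The lists held 1074 to 65131 peaks, and the sequencing depth of the libraries is unknown. For H3K27ac lists ranged from 8574 to 65131 peaks in Oct4+, from 3079 to 12244 in DP and from 4792 to 7128 in Pdgfra+ nEnd. The H3K4me1 lists of Pdgfra+ replicates 1 and 2 were short, with 1723 and 1074 peaks. The labels were checked against marker genes by their H3K27ac. Summed over 7 pluripotency genes, the covered share of the windows was 119 to 227% in Oct4+ nEnd, against 11.1 to 70.7% in DP nEnd and at most 20.1% in Pdgfra+ nEnd. Summed over 7 endoderm genes it was 0 to 56.9%, 42.8 to 139% and 62.1 to 96.1% in the same order, with Oct4+ and DP libraries overlapping. Pou5f1, the pluripotency gene that encodes the sorted OCT4, overlapped between populations when taken alone. Its share was 30.8, 34.3 and 16.1% in Oct4+, 42.7, 0 and 0% in DP and 0, 0 and 15.4% in Pdgfra+ nEnd. Fibroblasts of the feeder layer also make basement membrane. Summed over 12 fibroblast markers the share was 5.77 to 63.8% in Oct4+ and 0 to 7.03% in DP nEnd, and it was 0% in all 3 Pdgfra+ libraries, where none of the 12 genes, Col1a1, Col1a2 and Dcn among them, had a listed H3K27ac peak in its window.

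The measure was the share of a gene's window covered by listed peaks, in percent per library. A gene was called when all 6 DP and Pdgfra+ libraries lay above, or all 6 below, the 3 Oct4+ libraries. An F statistic over the 3 populations was also tested per gene by exact permutation of the libraries, with Benjamini-Hochberg adjustment over every gene with a listed peak in its window. The p-value printed beside a difference belongs to this F statistic, not to the difference. A gene listed in all 3 Oct4+ libraries and at 0% in the 6 others has p = 0.0357 in this exact permutation test, whatever its Oct4+ values.

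Col4a1 and Col4a2 encode the α1 and α2 chains of type IV collagen, which assemble into the most widespread form of the network. They lie head to head on chromosome 8, with annotated starts 21 bp apart, Col4a1 at chr8:11198423-11312826 on the minus strand and Col4a2 at chr8:11312805-11449287 on the plus strand. Their windows share 40.022 kb, so the values of the pair are not independent. The 250 bases before each start, from the RefSeq promoter table (GRCm38.p6), are shown because H3K27me3 and H3K27ac peaks both fell on them. They are chr8:11312827-11313076 on the minus strand and chr8:11312555-11312804 on the plus strand, written 5′ to 3′. Capitals mark CCAAT and GGGCGG on either strand, motifs that 33.8% and 32.7% of all 32851 promoters of this length in the table hold.
Col4a1: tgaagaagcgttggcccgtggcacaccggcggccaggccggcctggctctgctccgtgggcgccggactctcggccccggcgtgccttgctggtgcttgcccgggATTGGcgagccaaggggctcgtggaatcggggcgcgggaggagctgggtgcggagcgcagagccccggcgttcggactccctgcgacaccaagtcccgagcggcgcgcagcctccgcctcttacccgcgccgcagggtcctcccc
Col4a2: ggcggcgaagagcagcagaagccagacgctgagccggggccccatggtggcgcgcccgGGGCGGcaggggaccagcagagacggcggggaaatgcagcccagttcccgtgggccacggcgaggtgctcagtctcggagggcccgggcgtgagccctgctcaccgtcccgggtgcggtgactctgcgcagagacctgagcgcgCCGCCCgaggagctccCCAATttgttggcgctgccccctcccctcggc
Both were rich in CpG dinucleotides, with 31 for Col4a1 and 26 for Col4a2 against a median of 6 over the table.

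H3K27ac covered 4.62, 9.73 and 0% of the Col4a1 window in Oct4+ replicates 1 to 3. It covered 32.9, 16.7 and 49.6% in DP and 22.4, 22.6 and 31.1% in Pdgfra+ nEnd. All 6 DP and Pdgfra+ libraries lay above all 3 Oct4+ libraries, although the Oct4+ lists 1 and 2 were the longest of the mark. The mean was 4.78% ± 4.87 (SD, n = 3) in Oct4+, 33.1% ± 16.5 (SD, n = 3) in DP and 25.4% ± 4.98 (SD, n = 3) in Pdgfra+ nEnd, and the difference between the 6 libraries and Oct4+ was 24.4 percentage points (exact permutation p = 0.0464, adjusted p = 0.534). For Col4a2 the shares were 7.64, 13.8 and 0% in Oct4+, 28.8, 10.2 and 51.5% in DP, and 27.2, 16.3 and 22.8% in Pdgfra+ nEnd. DP replicate 2, the shortest H3K27ac list, lay below Oct4+ replicate 2, the longest, so the groups overlapped (difference 19.0 percentage points, exact permutation p = 0.157, adjusted p = 0.542).

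Of the 9 genes, Col4a1 alone was called higher in DP and Pdgfra+ nEnd for H3K27ac, where 0.369% of the 18681 genes tested were called in that direction. The study had already shown Col4a1 and Col4a2 as endodermal examples in its CUT&Tag data. It described H3K27ac and H3K4me1 at their enhancers in DP and Pdgfra+ nEnd and not in Oct4+ cells. The call is therefore not independent of that choice, and the genome share beside it is a description. The median difference was 7.95 percentage points over the 9 genes and -3.89 over all genes tested, and 5 of the 9 differences were above 0 against 11.7% of all genes. No gene of the set passed an adjusted p of 0.05 in any mark, and no gene of the genome did either (0% in each mark). Unadjusted, 1623 genes had p under 0.05 for H3K27ac, 832 for H3K4me1, 713 for H3K27me3 and 1654 for H3K9me3, of which 2, 0, 2 and 0 were members. With 9 libraries the smallest p is 0.00357, and for H3K27ac 1335 genes would need it for any to pass, whereas 38 had it.

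The count depended on the length of the lists. When every H3K27ac list was shortened to its 3079 strongest peaks, the length of the shortest, 6 of the 9 genes (Col4a1, Col4a2, Lama1, Lamb1, Hspg2 and Sparc) were called higher in DP and Pdgfra+ nEnd, beside 9.3% of the genes tested. Col4a1, Col4a2, Lama1 and Lamb1 then had 0% in all 3 Oct4+ libraries, and Lamc1, Nid1 and Nid2 had 0% in all 9 libraries. Equal numbers of peaks need not cover equal lengths, since peak widths differed between lists. The 8574 peaks of Oct4+ replicate 3 covered 22.4 Mb. The 4792 peaks of Pdgfra+ replicate 1 covered 25.9 Mb, and the 7128 of Pdgfra+ replicate 2 covered 21.3 Mb. The part of peak width in the count was not tested.

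**Figure D1:**
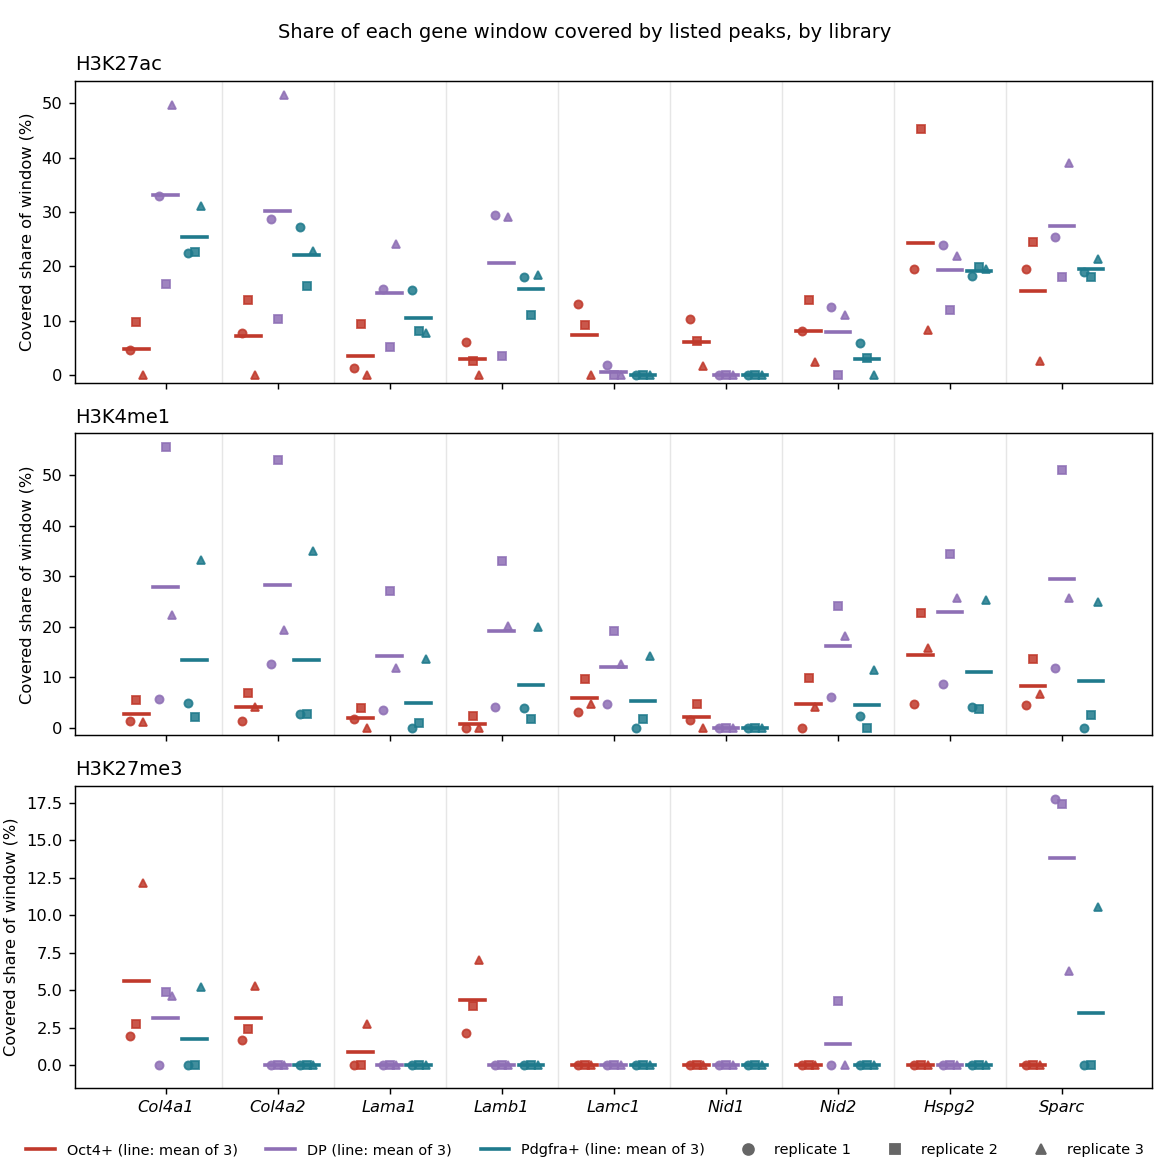
Share of each gene's window (y axis, percent) covered by listed peaks of H3K27ac, H3K4me1 and H3K27me3 (panels from top to bottom) for the 9 genes (x axis). Points are libraries, shaped by replicate and coloured by population, and lines are means of 3 libraries. The 6 DP and Pdgfra+ points of Col4a1 lie between 16.7 and 49.6% for H3K27ac, above the 3 Oct4+ points, while Nid1 is at 0% in those 6.

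The peaks over the pair were among the strongest of their lists. Ranked by total signal within its own list, the strongest H3K27ac peak of the Col4a1 window stood at the 99.5th to 99.8th percentile in all 6 DP and Pdgfra+ libraries, and the same peak served Col4a2. In Oct4+ nEnd it stood at the 43.6th and 72.0th percentile for Col4a1 in replicates 1 and 2, and replicate 3 listed no peak. A percentile within a list also depends on how many weak peaks the list holds, here 3079 to 65131 peaks in all, so the ranks describe each list and no difference between populations was called from them.

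**Figure D2:**
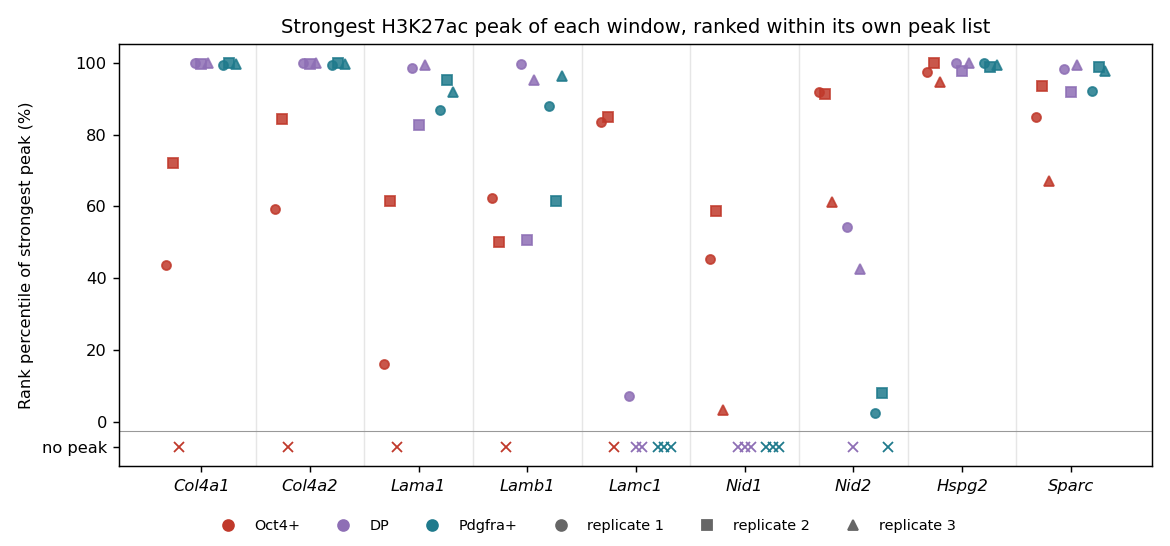
Rank percentile (y axis) of the strongest H3K27ac peak of each gene's window among all peaks of the same list, by gene (x axis), population (colour) and replicate (shape). Crosses below the line mark libraries with no listed peak in the window. Col4a1 and Col4a2 lie at 99.5 to 99.8 in all 6 DP and Pdgfra+ libraries.

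Over the pair, H3K27ac in DP and Pdgfra+ nEnd lay in several regions. A promoter region, chr8:11302835-11329228, had a peak in 2 of 3 Oct4+, 3 of 3 DP and 3 of 3 Pdgfra+ libraries. Within Col4a1, a region 24.3 to 58.4 kb from the start (chr8:11254462-11288557, overlapping exons) had one in 1, 3 and 3 libraries. Within Col4a2, a region 42.728 to 60.032 kb from the start (chr8:11355533-11372837, intronic) also had one in 1, 3 and 3. Further Col4a2 regions were less uneven, with a peak 60.1 to 87.7 kb from the start in 2, 2 and 3 libraries and 19.7 to 39.2 kb from it in 2, 3 and 1. H3K4me1 lay over the same parts of both genes, with a peak 26.1 to 62.3 kb into Col4a1 in 1, 3 and 3 libraries and 44.0 to 88.8 kb into Col4a2 in 2, 3 and 3.

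The 300 bases centred 52.7 kb into Col4a1, chr8:11260020-11260319, plus strand, are shown because the H3K27ac maxima of 3 of the 6 libraries lay within 150 bp of this centre. Capitals mark matches, on either strand, to GATA factor (AGATAA or TGATAA), forkhead (TGTTTAC), SOX (ACAATGG) and AP-1 (TGANTCA) motifs.
Col4a1 intragenic maximum: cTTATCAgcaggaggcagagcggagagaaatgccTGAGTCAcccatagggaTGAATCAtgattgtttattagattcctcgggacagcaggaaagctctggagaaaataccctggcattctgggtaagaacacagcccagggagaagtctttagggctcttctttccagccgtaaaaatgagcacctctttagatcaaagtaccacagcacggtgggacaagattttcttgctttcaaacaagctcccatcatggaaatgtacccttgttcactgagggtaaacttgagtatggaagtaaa
It held 1 GATA match and 2 AP-1 matches. The window picked in the same way within Col4a2, centred 47.9 kb from its start (chr8:11360574-11360873), is not shown. The maxima of 4 of the 6 libraries lay within 150 bp of its centre, and it held 1 GATA match and no AP-1, forkhead or SOX match. Of all 41347 windows of 300 bases at H3K27ac maxima in the 6 libraries, 18.0% held a GATA match and 10.2% an AP-1 match, and a match is a description of the letters, not a site.

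H3K27me3 was listed at the shared promoter in 3 of 3 Oct4+ libraries and in 0 of 6 DP and Pdgfra+ libraries. The region, chr8:11308601-11317987, ran from 4.204 kb before to 5.182 kb after the Col4a2 start. Over the Col4a2 window the mark covered 1.69, 2.40 and 5.32% in Oct4+ replicates 1 to 3 and 0% in the 6 others, so the groups did not overlap (difference -3.14 percentage points, exact permutation p = 0.0357, adjusted p = 0.559). The Col4a1 window held further H3K27me3 peaks beyond its 3′ end in DP replicates 2 and 3 and Pdgfra+ replicate 3, so its shares overlapped, at 1.94, 2.75 and 12.2% in Oct4+, 0, 4.89 and 4.62% in DP and 0, 0 and 5.25% in Pdgfra+ nEnd. Without Oct4+ replicate 3, the difference for Col4a1 was 0.118 percentage points in place of -3.16.

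Col4a1, Col4a2 and Lamb1 were the members with an H3K27me3 promoter peak in all 3 Oct4+ libraries and in none of the 6 others. Of the 4911 promoters with a listed H3K27me3 peak in any library, 42 (0.855%) had this pattern. Over all genes, 4.58 to 15.8% of promoters were marked by the Oct4+ lists, 12.1 to 17.7% by the DP lists and 2.09 to 13.3% by the Pdgfra+ lists, so the ranges overlapped and the Pdgfra+ lists reached lowest. None of the 9 members' promoters was marked in a DP or Pdgfra+ library. Col4a1 and Col4a2 also had an H3K27ac promoter peak in all 6 DP and Pdgfra+ libraries, a combination found at 7 promoters (0.143%) and counted after the members' values were known. Both also had an H3K27ac promoter peak in 2 of 3 Oct4+ libraries. With starts 21 bp apart, the pair shares these peaks and does not count as 2 independent promoters.

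**Figure D3:**
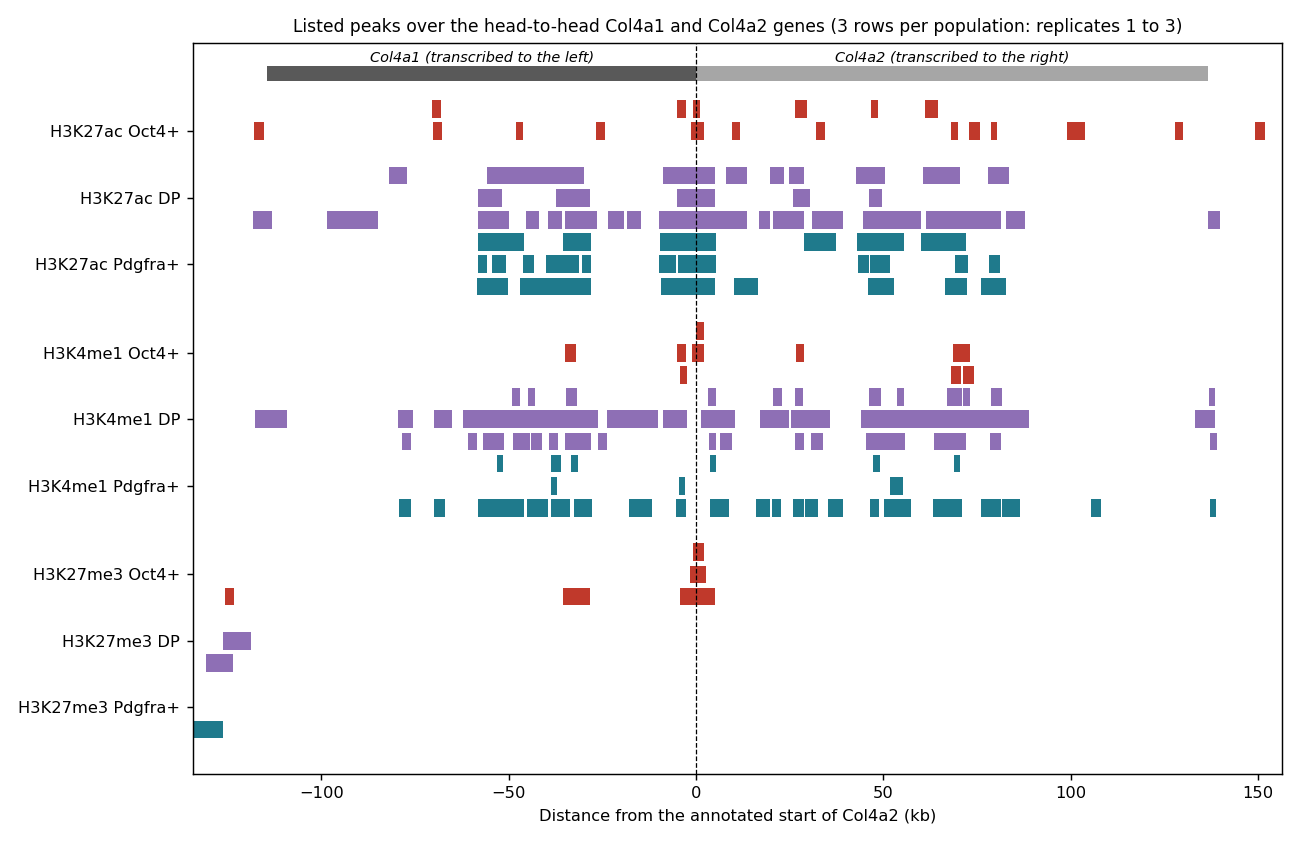
Listed peaks (bars) of H3K27ac, H3K4me1 and H3K27me3 over Col4a1 and Col4a2 (grey bars on top) by distance from the Col4a2 start (x axis, kb), with 1 row per library in 3 rows per population. The H3K27me3 bars at the dashed start occur in the 3 Oct4+ rows only. H3K27ac bars inside both genes occur in all DP and Pdgfra+ rows and in the rows of Oct4+ replicates 1 and 2.

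Lama1, Lamb1 and Lamc1 encode the α1, β1 and γ1 chains of laminin-111, the laminin of the early embryo. Lama1 and Lamb1 had listed H3K27ac in all 6 DP and Pdgfra+ libraries, and Lamc1 had it in 1 of them.

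Lama1 lies on chromosome 17 (chr17:67697259-67822647, plus strand). H3K27ac covered 1.24, 9.34 and 0% of its window in Oct4+, 15.9, 5.10 and 24.1% in DP and 15.6, 8.13 and 7.78% in Pdgfra+ nEnd. The 3 libraries of DP replicate 2 and Pdgfra+ replicates 2 and 3 lay below Oct4+ replicate 2, and the groups overlapped (difference 9.23 percentage points, exact permutation p = 0.196, adjusted p = 0.542). The promoter had an H3K27ac peak in 1 of 3 Oct4+, 3 of 3 DP and 3 of 3 Pdgfra+ libraries, within a region reaching from 15.7 kb before to 5.08 kb after the start (chr17:67681557-67702337). H3K27me3 was listed at the promoter in Oct4+ replicate 3 alone, where it covered 2.76% of the window. Past the 3′ end, regions 127 to 132 kb and 136 to 141 kb from the start carried H3K9me3 in 3, 2 and 3 and in 3, 3 and 2 libraries of Oct4+, DP and Pdgfra+ nEnd, so this mark lay beside the gene in all populations.

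Lamb1 lies on chromosome 12 (chr12:31265234-31329644, plus strand). H3K27ac covered 6.04, 2.65 and 0% of its window in Oct4+, 29.4, 3.48 and 29.0% in DP and 18.0, 11.1 and 18.4% in Pdgfra+ nEnd. DP replicate 2 lay below Oct4+ replicate 1, so the groups overlapped (difference 15.3 percentage points, exact permutation p = 0.129, adjusted p = 0.542), and without either of these libraries Lamb1 was called. H3K4me1 covered 0, 2.32 and 0% in Oct4+, 4.13, 33.1 and 20.2% in DP and 3.90, 1.67 and 19.96% in Pdgfra+ nEnd, with Pdgfra+ replicate 2, the list of 1074 peaks, below Oct4+ replicate 2 (exact permutation p = 0.0536, adjusted p = 0.747).

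H3K27me3 over Lamb1 was listed in the opposite populations. It covered 2.19, 3.92 and 7.02% in Oct4+ replicates 1 to 3 and 0% in the 6 others (difference -4.38 percentage points, exact permutation p = 0.0357, adjusted p = 0.559), all of it within 4.09 kb before to 3.24 kb after the start (chr12:31261146-31268474). Col4a2 and Lamb1 were the 2 members called higher in Oct4+ nEnd for H3K27me3, beside 0.591% of the 9814 genes tested, and no member was called in the other direction (0.693%). In Oct4+ replicate 1 the Lamb1 peak ranked at the 0.706th percentile of its list, and Lamb1 was not called when each list was limited to the stronger 50% of its peaks.

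The 250 bases before the RefSeq start of Lamb1, chr12:31265043-31265292, plus strand, are shown with CCAAT and GGGCGG matches in capitals, since peaks of both H3K27me3 and H3K27ac fell there. H3K27ac was listed at this promoter in 1 of 3 Oct4+ libraries (replicate 2), 2 of 3 DP and 3 of 3 Pdgfra+ libraries, and H3K27me3 in 3, 0 and 0.
Lamb1: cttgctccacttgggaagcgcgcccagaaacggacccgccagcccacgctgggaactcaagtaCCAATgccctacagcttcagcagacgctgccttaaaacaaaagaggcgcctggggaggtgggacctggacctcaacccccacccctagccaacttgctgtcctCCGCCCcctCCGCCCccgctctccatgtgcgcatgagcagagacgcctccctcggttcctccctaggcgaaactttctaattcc
The stretch held 1 CCAAT match, 2 GGGCGG matches and 14 CpG.

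Upstream of Lamb1, a region 20.3 to 14.9 kb before the start (chr12:31244924-31250375, intergenic) had H3K27ac in 0, 2 and 3 libraries of Oct4+, DP and Pdgfra+ nEnd and H3K4me1 in 0, 3 and 3. A second H3K4me1 region 11.5 to 6.49 kb before the start was listed in 0, 3 and 1 libraries. The H3K27ac maxima of all 5 libraries with a peak lay within 150 bp of the centre of the 300 bases below, 18.5 kb before the start (chr12:31246594-31246893, plus strand), which is why they are shown.
Lamb1 upstream maximum: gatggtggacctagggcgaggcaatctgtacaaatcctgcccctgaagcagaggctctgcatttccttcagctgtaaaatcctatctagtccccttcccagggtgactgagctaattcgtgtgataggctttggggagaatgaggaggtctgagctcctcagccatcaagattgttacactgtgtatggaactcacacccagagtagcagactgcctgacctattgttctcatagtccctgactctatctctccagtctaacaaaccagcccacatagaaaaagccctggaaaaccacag
None of the searched GATA, forkhead, SOX and AP-1 spellings was in these letters.

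**Figure D4:**
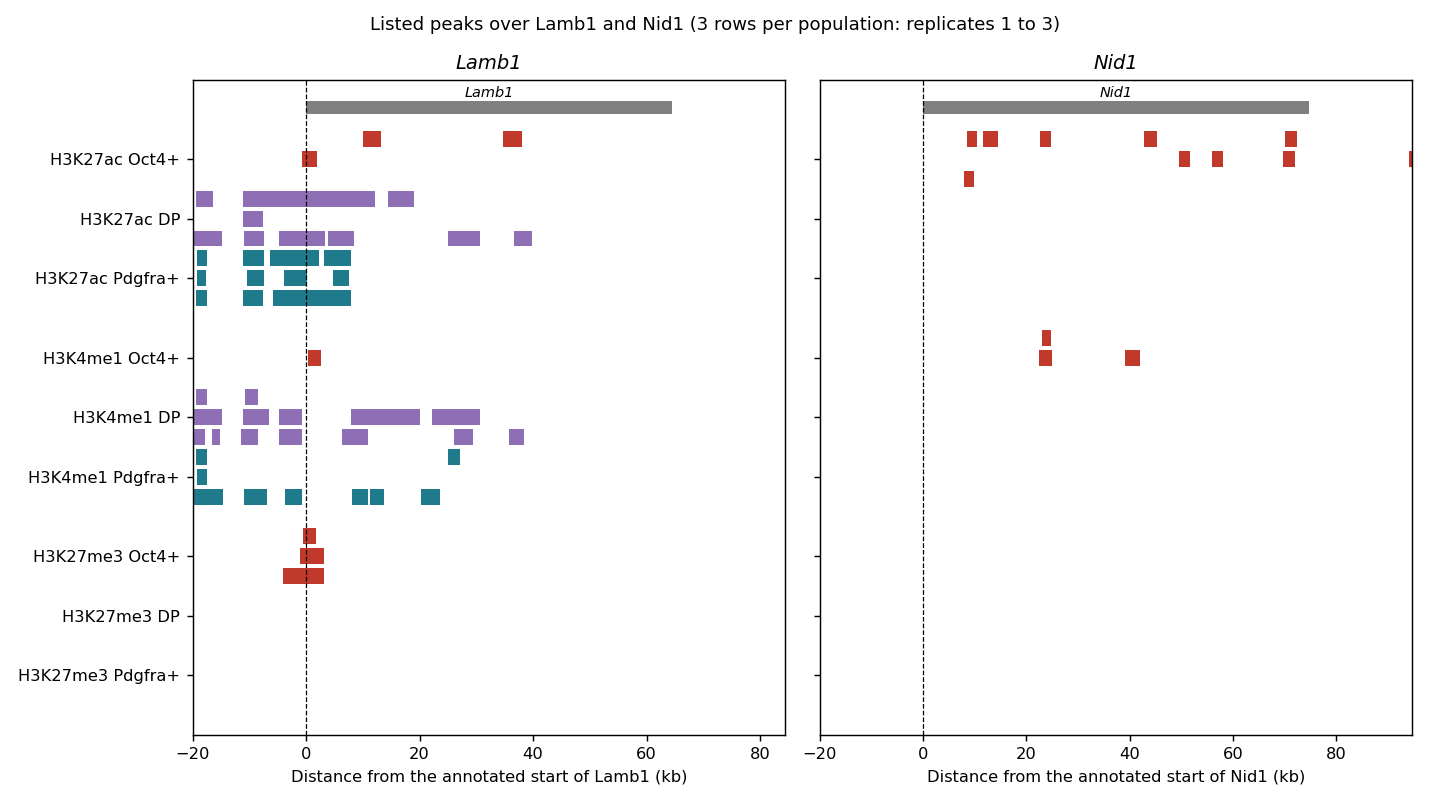
Listed peaks (bars) of H3K27ac, H3K4me1 and H3K27me3 over Lamb1 (left) and Nid1 (right) by distance from each gene's start (x axis, kb), with 1 row per library in 3 rows per population. Lamb1 has H3K27me3 at the start in the 3 Oct4+ rows and peaks about 18.5 kb upstream in DP and Pdgfra+ rows, and Nid1 has bars in Oct4+ rows only.

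Lamc1 lies on chromosome 1 (chr1:153218922-153332786, minus strand). H3K27ac covered 13.0, 9.26 and 0% of its window in Oct4+, 1.86, 0 and 0% in DP and 0% in all 3 Pdgfra+ libraries. Oct4+ replicate 3, at 0%, made the groups overlap (difference -7.12 percentage points, exact permutation p = 0.250, adjusted p = 0.542), and without it Lamc1 was called higher in Oct4+ nEnd together with Nid1, a direction in which 47.8% of genes were then called. H3K4me1 was listed in its introns, 6.67 to 20.2 kb from the start in 3, 3 and 1 libraries and 54.5 to 67.8 kb from the start in 1, 3 and 1. No H3K27me3 peak lay in its window.

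Nid1 and Nid2 encode nidogens, which link laminin to type IV collagen. Nid1 (chr13:13437551-13512269, plus strand) had H3K27ac over 10.3, 6.33 and 1.64% of its window in Oct4+ and 0% in all 6 DP and Pdgfra+ libraries. The groups did not overlap (difference -6.10 percentage points, exact permutation p = 0.0357, adjusted p = 0.443), but this direction was common, with 7.7% of genes called. Nid1 was the only member called higher in Oct4+ nEnd for H3K27ac. Its H3K4me1 covered 1.58, 4.79 and 0% in Oct4+ and 0% in the others, and no library of any mark had a peak at its promoter. Its promoter sequence, chr13:13437352-13437601, plus strand, is shown for contrast with those of Col4a1, Col4a2 and Lamb1, with CCAAT and GGGCGG in capitals.
Nid1: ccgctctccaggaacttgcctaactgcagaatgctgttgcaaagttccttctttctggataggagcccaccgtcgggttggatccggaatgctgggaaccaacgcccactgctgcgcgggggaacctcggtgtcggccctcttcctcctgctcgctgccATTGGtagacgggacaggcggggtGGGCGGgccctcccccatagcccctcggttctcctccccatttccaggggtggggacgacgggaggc
It held 1 match to each motif and 16 CpG, so a promoter without any listed peak held the same motifs as those of Col4a2 and Lamb1.

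Nid2 (chr14:19751265-19811787, plus strand) had H3K27ac over 8.01, 13.8 and 2.39% of its window in Oct4+, 12.5, 0 and 10.96% in DP and 5.96, 3.05 and 0% in Pdgfra+ nEnd. The groups overlapped (difference -2.65 percentage points, exact permutation p = 0.457, adjusted p = 0.767). The difference was 0.220 without Oct4+ replicate 2 and -5.50 without Oct4+ replicate 3. Its promoter had an H3K27ac peak in 3, 2 and 0 libraries of Oct4+, DP and Pdgfra+ nEnd. The strongest peak of the window ranked at the 61.3rd to 91.8th percentile in Oct4+ libraries and at the 2.34th and 8.02nd in Pdgfra+ replicates 1 and 2. H3K4me1 in its gene body was listed in 1, 3 and 2 libraries 4.99 to 14.0 kb from the start and in 0, 3 and 1 libraries 33.9 to 39.1 kb from it. An H3K9me3 region 21.6 to 25.8 kb into the gene (chr14:19772821-19777091, intronic) was listed in 3 of 3 Oct4+ libraries and in none of the others.

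Hspg2 (chr4:137468769-137570630, plus strand) encodes perlecan. Its promoter was marked by H3K27ac in 9 of 9 libraries, and the strongest peak of its window stood at the 94.6th to 99.9th percentile in every list. In Oct4+ replicates 1 and 2 that peak lay in the region over the start of a neighbouring gene, Usp48. The region over the Hspg2 start itself stood at the 77.0th to 99.4th percentile in Oct4+ libraries. It stood at the 97.7th to 99.8th in DP and the 98.8th to 99.9th in Pdgfra+ libraries. H3K27ac covered 19.4, 45.3 and 8.21% of the window in Oct4+, 23.9, 11.9 and 22.0% in DP and 18.3, 19.8 and 19.5% in Pdgfra+ nEnd. The Oct4+ libraries spanned the range of the others (difference -5.11 percentage points, exact permutation p = 0.950, adjusted p = 1). The sign of this difference was not stable: it was 10.4 percentage points with equal numbers of peaks, when Hspg2 was called, and 5.40 without Oct4+ replicate 2. Away from the promoter, H3K27ac was listed in 9 of 9 libraries in a region 22.7 to 16.2 kb before the Hspg2 start. The region over the start of Usp48, 120 to 135 kb after the Hspg2 start, was also listed in 9 of 9. It lay mostly past the end of the Hspg2 window, at 121.861 kb. Only its peaks in Oct4+ replicates 1 and 2 and DP replicates 1 and 2 reached into that window.

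Sparc (chr11:55394500-55423183, minus strand) encodes a glycoprotein that binds collagen. H3K27ac covered 19.5, 24.5 and 2.61% of its window in Oct4+, 25.4, 18.1 and 39.0% in DP and 19.0, 18.1 and 21.3% in Pdgfra+ nEnd, and the groups overlapped (difference 7.95 percentage points, exact permutation p = 0.414, adjusted p = 0.743). The difference was 1.49 without Oct4+ replicate 3 and 12.4 without Oct4+ replicate 2. No H3K27ac peak lay on the promoter at the GENCODE start. At the RefSeq start, 3103 bp downstream and looked at after the data had been seen, 2 of 3 Oct4+, 3 of 3 DP and 3 of 3 Pdgfra+ libraries had one. A region 14.6 to 4.16 kb before the GENCODE start (chr11:55427344-55437742, intergenic) had H3K27ac in 1, 3 and 3 libraries. The 300 bases centred 7.42 kb before the start, chr11:55430458-55430757, plus strand, had the H3K27ac maxima of 3 of the 6 libraries within 150 bp of their centre, and are shown with the same motifs in capitals.
Sparc upstream maximum: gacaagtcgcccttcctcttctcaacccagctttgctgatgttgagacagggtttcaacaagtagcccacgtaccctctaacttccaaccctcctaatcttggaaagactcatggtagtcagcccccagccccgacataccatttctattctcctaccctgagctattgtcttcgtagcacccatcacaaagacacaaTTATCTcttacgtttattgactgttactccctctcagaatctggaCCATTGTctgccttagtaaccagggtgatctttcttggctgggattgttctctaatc
They held 1 GATA match and 1 SOX match, the latter present in 4.80% of the windows of this length at H3K27ac maxima.

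For H3K27me3, Sparc had listed peaks in DP nEnd and none in Oct4+ nEnd. The mark covered 0% of the window in all 3 Oct4+ libraries, 17.7, 17.4 and 6.27% in DP and 0, 0 and 10.6% in Pdgfra+ nEnd (difference 8.66 percentage points, exact permutation p = 0.0714, adjusted p = 0.613). The region lay past the 3′ end, 34.7 to 59.8 kb from the start (chr11:55363355-55388510), in 3 DP libraries and 1 Pdgfra+ library. It did not reach the Sparc promoter.

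For H3K4me1, 8 of the 9 differences between DP with Pdgfra+ nEnd and Oct4+ nEnd were above 0, with a median of 7.62 percentage points against -0.214 over all 13283 genes tested, of which 46.9% were above 0. The DP mean lay above the Oct4+ mean for each of these 8. The Pdgfra+ mean lay below it for Lamc1 (5.29 against 5.86%), Nid2 (4.62 against 4.66%) and Hspg2 (11.1 against 14.4%). It lay above it for Col4a1, Col4a2, Lama1, Lamb1 and Sparc. No member was called in either direction, beside 0.512% of genes higher in DP and Pdgfra+ and 3.81% higher in Oct4+ nEnd. When Pdgfra+ replicates 1 and 2 were left out, a choice made after seeing the lists, Col4a1, Col4a2 and Lamb1 were called higher, beside 5.49% of genes. Within its own list, the strongest Lamb1 peak ranked at the 88.7th to 98.9th percentile in the 6 DP and Pdgfra+ libraries and at the 1.69th in Oct4+ replicate 2, the Oct4+ library that listed one.

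H3K9me3 peaks lay in the windows of 4 of the 9 members, Col4a2, Lama1, Nid2 and Sparc. None was called in either direction, beside 3.89% of the 13199 genes tested higher in DP and Pdgfra+ and 7.66% higher in Oct4+ nEnd. No member had H3K9me3 at its promoter.

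**Figure D5:**
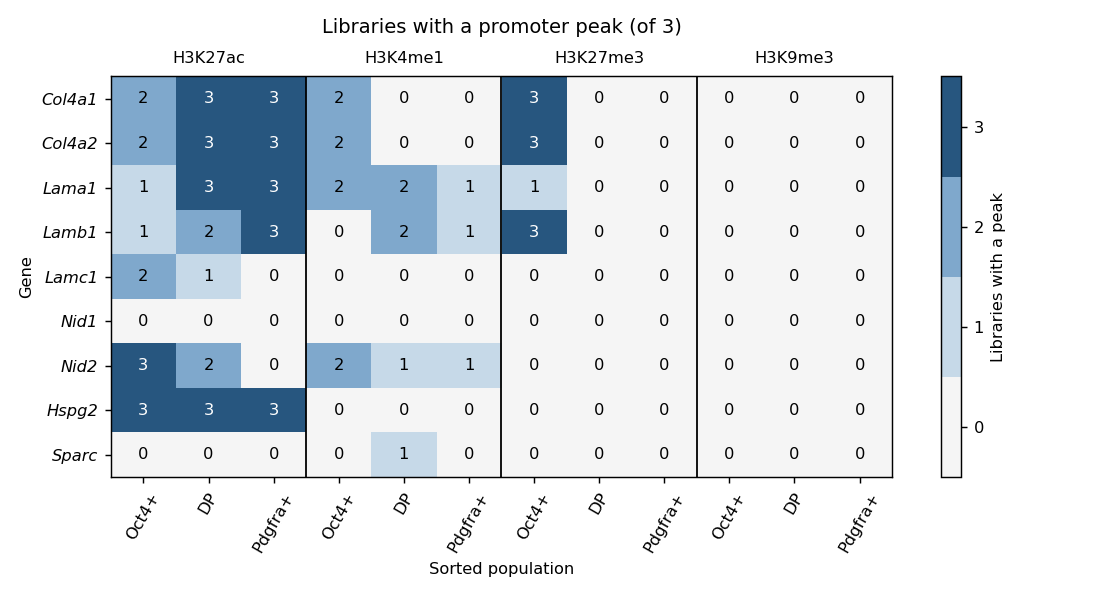
Number of libraries, out of 3, with a listed peak between 1 kb before and 100 bp after the annotated start of each gene (rows), by mark and population (columns). Col4a1, Col4a2 and Lamb1 are the genes with 3 libraries for H3K27me3 in Oct4+ nEnd and 0 in DP and Pdgfra+ nEnd, and Nid1 is at 0 throughout.

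At promoters, H3K27ac was listed in 3 of 3 Pdgfra+ libraries for 5 members (Col4a1, Col4a2, Lama1, Lamb1 and Hspg2), in 3 of 3 DP libraries for 4 and in 3 of 3 Oct4+ libraries for 2 (Nid2 and Hspg2). Over all protein-coding genes the shares were 12.6%, 10.6% and 16.0%. The collagen pair, Lama1, Lamb1 and Sparc had their highest mean H3K27ac share in DP nEnd, and Hspg2, Lamc1, Nid1 and Nid2 in Oct4+ nEnd. For Hspg2 and Nid2 this order rested on 1 library, Oct4+ replicate 2, and with equal numbers of peaks Lamc1, Nid1 and Nid2 were at 0% in all 9 libraries. DP and Pdgfra+ libraries overlapped for every member. In a comparison of these 2 populations added after the data had been seen, the 3 Pdgfra+ libraries lay above the 3 Oct4+ libraries for Col4a1, Col4a2 and Lamb1, beside 0.824% of 18562 genes, and below them for Nid1, beside 16% of genes. For the other members they overlapped.

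Other genes of the matrix were mostly not called for H3K27ac. Of 24 further basement membrane components, 23 had a listed peak and 1 was called, Tinagl1, which encodes a matricellular protein of basement membranes, with 4.55, 4.99 and 0% in Oct4+, 11.96, 10.3 and 22.1% in DP and 7.85, 10.6 and 7.94% in Pdgfra+ nEnd. Of 13 receptors, Itga6, the α6 subunit of laminin-binding integrins, was called higher in Oct4+ nEnd, at 22.2, 35.5 and 12.2% against 0% in the 6 others. Over all genes tested, 0.369% were called higher in DP and Pdgfra+ nEnd and 7.7% higher in Oct4+ nEnd. The 1 receptor of 13 was near the latter share. None of 22 genes for collagen and laminin processing was called, and the median differences of these 3 lists were -1.52, -2.29 and -1.47 percentage points. The median over all genes tested was -3.89, which leaves out genes without a listed peak. The list medians count such genes as 0. A peak was listed for 23 of the 24 components, 13 of the 13 receptors and 20 of the 22 processing genes, so only the receptor median is directly comparable.

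Among the marker lists, Sox17 and Foxa2, transcription factors of endoderm, were called higher in DP and Pdgfra+ nEnd for H3K27ac, out of 7 endoderm genes. So were Krt8 and Krt18, keratins of simple epithelia, out of 7 genes of a trophectoderm list. Of all genes tested, 0.369% were called in this direction. Gata3 and Tfap2c of the trophectoderm list were listed in 2 Oct4+ libraries and at 0% in the 6 others, with differences of -7.68 and -11.7 percentage points and overlapping groups. Cdx2, Elf5 and Eomes of the same list went the other way, also with overlapping groups. Their differences were 6.24, 2.01 and 5.08 percentage points, and the median of the list was 5.08. Nanog, Sox2, Esrrb, Zfp42 and Klf2, 5 of 7 pluripotency genes, were called higher in Oct4+ nEnd, beside 7.7% of all genes. In the same direction Col3a1 and Col5a1 were called, 2 of 12 fibroblast markers, of which 9 had a listed peak. The part of feeder cells in the H3K27ac of the members was not tested. In the Pdgfra+ libraries, where the 12 fibroblast markers were at 0%, Col4a1 was at 22.4 to 31.1%.

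The mean profile of the 9 genes over the 27 libraries of H3K27ac, H3K4me1 and H3K27me3 was most like those of Carhsp1 (Pearson r = 0.981), Rffl, Ptpn14, Supv3l1, Vangl1, Gm44511, Retreg1, Srgn, Rad51d and Gna12 (r = 0.951), out of 19215 genes compared. Of the members, Lama1 followed the mean of the other 8 most closely (r = 0.954), Lamc1 less so (r = 0.587) and Nid1 hardly (r = 0.0446). All profiles share the same libraries and their list lengths, and the correlations are descriptions.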

How the data were processed

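CUT&Tag peak lists of 36 libraries (4 marks, 3 sorted populations, 3 replicates) were used, and 3 IgG samples were not used here. The deposited values are the total and maximum signal of each peak, made by the authors by computing coverage with BEDtools and calling peaks in each library with SEACR in stringent mode against IgG. The submitters' processing notes name mm10, bcl2fastq 2.19.1, Bowtie2, SAMtools 1.12, deepTools and bedtools 2.26.0. The versions of Bowtie2 and SEACR, the SEACR normalization setting and the read depth are not given in the sources used here, so no interval that needs depth is given. Signals were whole numbers that were not scaled to depth, and they were used only to rank peaks within a list and in the alternatives.

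The covered share of each gene window was computed in Python 3.11.15 (NumPy 2.4.6, pandas 2.3.3, Matplotlib 3.10.9) for 21911 protein-coding genes of GENCODE vM21. All 1680 assignments of 9 libraries to 3 populations were enumerated, so the exact permutation test cannot go below p = 0.00357, and p-values were adjusted by the Benjamini-Hochberg method. The script was tested on simulated data. The study calls the replicates biological, without stating whether they were separate cultures or separate sorts of 1 culture, and p-values measure the spread between these samples. A promoter reached from 1 kb before to 100 bp after the annotated start. A region was the union of overlapping peaks over the libraries of a mark, and it was named when 3 of 3 libraries of a population had a peak. All 9 members and the 10 most alike profiles were named. Of the lists, the rule was to name the genes called for H3K27ac. Other list genes named in the text, among them Gata3, Cdx2, Col1a1, Pxdn and Sox7, fell outside this rule. Members, lists and motifs were chosen with earlier results of these data, and for motifs the sequences, known. Alternatives varied the peaks used, the window, neighbouring genes, the libraries and the replicate block.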

Additional observations from a re-analysis of the deposited data

How the results depend on the processing

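Depth is unknown, and list length limits what can be compared between libraries. The covered share counts any listed peak, so weak peaks of long lists weigh as much as strong ones. It is measured in bases, so wide peaks weigh more than narrow ones. The count of members with adjusted p under 0.05 was 0 in every mark under each alternative in which the test was run. It was not run where a whole replicate number or the lists chosen after seeing the data were left out. Calls by the rank of the strongest peak, tried after seeing the data, are not given, since ranks change with list length.

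For H3K27ac, 1 member was higher in DP and Pdgfra+ nEnd without overlap in the report. The count, with the share of all genes called in parentheses, was 6 with equal numbers of peaks (9.30%), 3 with the 50% of peaks of highest signal (0.539%), 4 above a common total signal (1.84%) and 4 within 20 kb of the start (0.672%). It ranged from 1 to 4 when all libraries of a replicate number were left out (4 without replicate 2, 7.04%). It was 2 without Oct4+ replicate 1 (0.611%), 3 without Oct4+ replicate 2 (2.44%) and 3 without DP replicate 2 (0.755%). The count of 1 member higher in Oct4+ nEnd, Nid1, became 0 with equal numbers of peaks, with the 50% of highest signal, above a common total signal, with 50 kb flanks and within 20 kb of the start (0.374 to 8.93%). It ranged from 1 to 2 without a replicate number (2 without replicate 3, 55.3%), and was 2 without Oct4+ replicate 3 (47.8%). With the shortest Oct4+ and DP lists left out together, an alternative chosen after seeing the data, the counts were 3 (0.766%) and 2 (47.9%).

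For H3K4me1, 0 members were called in the report. The count higher in DP and Pdgfra+ nEnd was 2 with equal numbers of peaks (1.76%), 1 with the 50% of highest signal (0.447%), 1 with 50 kb flanks (0.496%), 2 without Oct4+ replicate 2 (1.18%), 1 without Pdgfra+ replicate 2 (1.45%), and 0 to 2 without a replicate number (2 without replicate 2, 3.70%). It was 3 without the Pdgfra+ lists of under 2000 peaks (5.49%), chosen after seeing the data. The count higher in Oct4+ nEnd was 1 without Oct4+ replicate 3 (5.25%) and 0 to 1 without a replicate number. For H3K27me3, the 2 members higher in Oct4+ nEnd became 1 with the 50% of highest signal, 0 above a common total signal, where no gene was called, and 1 with 50 kb flanks (0.690, 0 and 0.573%). Col4a1 joined them with 5 kb flanks (0.781%) and within 20 kb of the start (0.715%), making 3, and took the place of Lamb1 with equal numbers of peaks (2 members, 3.01%). For H3K9me3, the count of 0 higher in Oct4+ nEnd became 1 with equal numbers of peaks (9.12%), 2 with 5 kb flanks (6.53%), 2 without Oct4+ replicate 3 (17.2%) and 0 to 2 without a replicate number. The promoter count of 3 for H3K27me3 was 3 when a peak had to cover 50% of the promoter, and 2 with equal numbers of peaks or with the 50% of highest signal.

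Some differences, in percentage points, changed sign. For H3K27ac, Hspg2 was at 10.4 with equal numbers of peaks, 12.8 above a common total signal, 20.2 within 20 kb of the start, 5.40 without Oct4+ replicate 2 and -13.9 to 7.10 without a replicate number. Nid2 was at 0.220 without Oct4+ replicate 2 and at -5.53 to 2.17 without a replicate number, and Sparc at -1.84 to 15.1 without a replicate number. For H3K4me1, Hspg2 was at -0.743 with 5 kb flanks, -2.22 without Oct4+ replicate 1, -0.863 without DP replicate 2 and -0.963 to 5.75 without a replicate number, and Lamc1 at -0.0554 to 4.73 without a replicate number. For H3K27me3, Col4a1 was at 0.118 without Oct4+ replicate 3. For H3K9me3, Lama1 was at 0.784 with 50 kb flanks and 2.03 within 20 kb of the start. The cause of these changes was not tested. Of 189 alternatives for single members each in H3K27ac and H3K4me1, 8 and 5 changed sign.

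Replicate numbers were shared between the populations, and in no mark did every pair of same-numbered libraries deviate together. Of 9 correlations, 1 was over 0.1 for H3K27ac, 4 for H3K4me1 (up to 0.633), 3 for H3K27me3 (up to 0.602) and 1 for H3K9me3, so the numbers were not taken to pair the samples. With the replicate block, 2 members, Col4a1 and Lamb1, were higher in DP and Pdgfra+ nEnd for H3K27ac in place of 1 (0.487% of all genes), and the other counts were as in the report.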

Other observations

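In the other marks, further genes of the matrix lists separated the populations, and they were named after their values were seen. For H3K4me1, Pxdn, a peroxidase that crosslinks type IV collagen, was higher in DP and Pdgfra+ nEnd without overlap, 1 of 18 tested components beside 0.512% of all genes. Lama3 and Col18a1 were higher in Oct4+ nEnd, 2 of 18 beside 3.81%. For H3K27me3, where 0.591% of all genes were called in that direction, Egflam was higher in Oct4+ nEnd, 1 of 19 tested components. So were P4ha2 and P3h2, which hydroxylate collagen prolines, among 14 tested genes for collagen and laminin processing. The endoderm factors Sox17 and Sox7, 2 of 6 tested endoderm genes, were also higher in Oct4+ nEnd for H3K27me3, the direction of Col4a2 and Lamb1. For H3K9me3, Lama5, 1 of 19 tested components, was higher in DP and Pdgfra+ nEnd. So were P4ha1 and Serpinh1, 2 of 18 tested processing genes, beside 3.89% of all genes. Plod2, 1 of the same 18, was higher in Oct4+ nEnd, beside 7.66%. None of these genes passed an adjusted p of 0.05 by the exact permutation test.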
